A study of Mus musculus with 10 samples.

Results

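The 34 genes described here are the mouse genes of antigen presentation and of the interferon gamma response that drives it, chosen by name, out of 24538 genes counted in RNA of sorted lung cells. They fall into the class I heavy chains H2-K1 and H2-D1 with their light chain B2m, 7 class I-like genes, 4 genes of peptide loading, 3 immunoproteasome subunits, the 2 transactivators Nlrc5 and Ciita, 8 genes of the class II pathway, both interferon gamma receptor chains, 2 response factors and 3 guanylate binding proteins. Of these, 30 passed the filter on low counts and were tested. The 4 others were H2-DMb1, H2-DMb2, H2-Q6 and H2-Q7.

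Groups of wild-type C57BL6/J mice were compared, with 5 libraries of normal lung and 5 of lung metastases, all from animals with an age tag of 8 to 10 weeks. Metastases came from E0771-LG mammary tumour cells of mouse, given by tail vein to females of 6 to 8 weeks; nodules under 1 mm across were cut out and pooled from 2 to 4 mice. Live cells positive for CD31, an endothelial adhesion molecule, and negative for CD45, the common leukocyte surface protein, were sorted from both tissues. Nothing in the labels says that normal lungs were pooled or that libraries came from separate animals, so p-values measure the spread between these samples, part of which may be technical.

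MHC class I molecules show peptides from proteins made inside the cell to CD8 T cells. Proteasomes cut the proteins, the Tap transporter brings the peptides into the endoplasmic reticulum, and the heavy chain with B2m carries them to the surface. Class II molecules show peptides from endosomes to CD4 T cells, with the invariant chain Cd74 holding the groove until cathepsins such as Ctss degrade it. Interferon gamma binds Ifngr1 and Ifngr2, which signal through Jak1 and Jak2 to induce Irf1, Nlrc5 and Ciita and, through them, most genes of both pathways. Lung endothelium is known to carry class I widely and, in mouse capillaries, class II at low levels.

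The control elements of this pathway are short and can be read in the promoters. The stretches below, from RefSeq on GRCm38.p6, are shown because H2-K1, Irf1 and Ctss are members whose level differed between the groups, and H2-Aa, a class II chain whose difference did not pass, because it carries the same elements as the class I gene H2-K1. Capitals mark the Y box (ATTGG, or CCAAT on the other strand) and the X2 core (TGACG) in H2-K1 and H2-Aa, elements of the module at which Nlrc5 and Ciita act. In H2-Aa the X2 core matches on both strands at overlapping bases. In Irf1 they mark the GAS element (TTCNNNGAA) of interferon gamma response, and in Ctss the ISRE core (GAAA, 2 free bases, GAAA), bound by Irf factors. Each is the 250 bases before a RefSeq start: chr17:34000348-34000597 (H2-K1) and chr17:34287824-34288073 (H2-Aa) on the minus strand, and chr11:53769764-53770013 (Irf1) and chr3:95526536-95526785 (Ctss) on the plus strand.
H2-K1: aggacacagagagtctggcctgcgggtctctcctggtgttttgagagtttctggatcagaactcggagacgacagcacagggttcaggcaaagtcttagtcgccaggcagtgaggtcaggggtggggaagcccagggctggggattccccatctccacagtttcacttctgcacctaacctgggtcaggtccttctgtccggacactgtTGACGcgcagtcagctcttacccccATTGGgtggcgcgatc
H2-Aa: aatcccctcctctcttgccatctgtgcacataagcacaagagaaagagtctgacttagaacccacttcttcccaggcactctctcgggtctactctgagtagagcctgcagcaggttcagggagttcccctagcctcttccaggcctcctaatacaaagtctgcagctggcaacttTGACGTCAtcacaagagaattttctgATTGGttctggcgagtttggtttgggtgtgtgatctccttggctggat
Irf1: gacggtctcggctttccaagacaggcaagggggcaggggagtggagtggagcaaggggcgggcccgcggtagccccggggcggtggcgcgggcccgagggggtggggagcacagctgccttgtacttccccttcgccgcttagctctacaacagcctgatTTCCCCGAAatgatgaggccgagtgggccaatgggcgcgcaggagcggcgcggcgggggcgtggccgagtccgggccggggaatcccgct
Ctss: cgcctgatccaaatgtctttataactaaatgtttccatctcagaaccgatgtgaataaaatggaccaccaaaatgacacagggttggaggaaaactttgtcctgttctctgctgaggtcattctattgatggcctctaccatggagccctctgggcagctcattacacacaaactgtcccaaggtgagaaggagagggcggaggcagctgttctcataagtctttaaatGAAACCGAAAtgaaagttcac

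Promoter windows from 250 bases before to 50 after a RefSeq start were searched for 28 of the 34 genes. Ciita, Nlrc5, H2-Ab1, Tap2 and Cd1d1 had none in the table used. Cd74 was not searched, because windows of members on chromosome 18, where it lies, were left out. The set of all promoters kept that chromosome. Searched on both strands, the Y box was present for 22 of the 28 genes, against 37.4% of 32851 promoters of the same length, and the X2 core for 10, against 20.8%. The ISRE core was present for 8 of the 28, against 3.44% of all promoters, and the GAS element for 6, against 8.30%. Some genes have a pair of windows, and a match in either was counted. The windows of Tap1 and Psmb9 largely overlap, so the Y box and X2 core they share were counted for both genes. The 28 genes are thus not all separate sequences. Such matches describe letters only, and the motifs were chosen because they are known in this pathway.

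Library and cell-type values bear on every result that follows. Counts assigned to genes ranged from 41.0 M to 79.7 M per normal lung library and from 21.7 M to 54.3 M per metastasis library. Pecam1, which encodes CD31, was 2415 ± 864 counts-per-million (CPM; SD, n = 5) in normal lung and 644 ± 508 in metastases, and Ptprc, which encodes CD45, was 17.8 ± 7.31 and 121 ± 25.6. Among 18 pan-endothelial markers 14 were lower in metastases, and their level in the 5 metastasis libraries was 35.5%, 22%, 18.1%, 8.84% and 6.82% of that in normal lung. Summed macrophage and monocyte markers were 51.0 to 232 CPM in normal lung and 1024 to 2066 CPM in metastases, with 5 of 8 tested higher, and 5 of 6 tested fibroblast markers were higher too. In such mixtures, fewer cells of a type and less RNA per cell cannot be told apart. The part of these shifts in the results on single genes was not tested, other than by scaling all libraries to the pan-endothelial genes.

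Over all 11823 tested genes the edgeR quasi-likelihood test, with Benjamini-Hochberg adjustment and a threshold of 0.05, called 20.2% of genes different, 12.0% higher and 8.22% lower in metastases. Of the 30 tested antigen presentation genes 1 was higher (3.33%), Ctss, and 6 were lower (20%): H2-K1, H2-Q4, Cd74, Ifngr1, Ifngr2 and Irf1. The remaining 23 did not pass. The estimate was below 0 for 23 of the 30, and their median log2 fold change was -0.88, beside 0.06 over all tested genes. All 5 metastasis libraries lay below all 5 normal lung libraries for H2-K1, H2-Q4 and Ifngr2, and above them for Ctss; over all tested genes such separation was found for 6.17% (below) and 8.50% (above). Under a scaling by the pan-endothelial genes, 16 members were higher and 0 lower in the edgeR test, 7069 of all genes were higher and 20 lower, and the median of all genes moved to 2.79. The members' median was then 1.92, and 25 of the 30 lay below the median of all genes. Directions given below are therefore relative to the bulk of the transcriptome and not to the endothelial genes. Leaving out normal lung replicate 1 left 2 members lower, leaving out metastasis replicate 4 left 3, and leaving out metastasis replicates 4 and 5 together left 2.

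**Figure D1:**
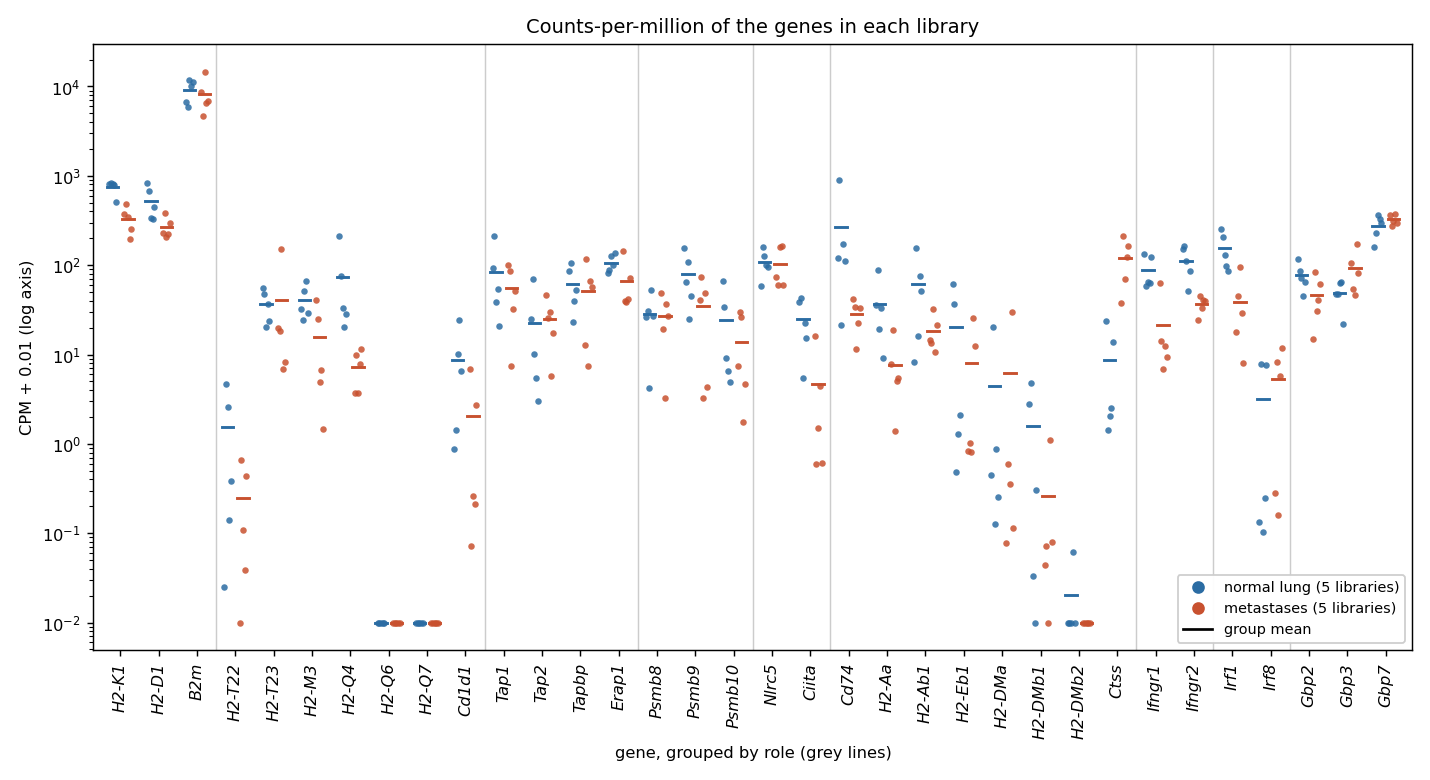
Counts-per-million plus 0.01, on a log axis, of the 34 genes in each library, grouped by role, with normal lung in blue, metastases in orange and a line at each group's mean. B2m lies highest in both groups, H2-Q6 and H2-Q7 are listed at 0 in every library, and Ctss is the gene whose metastasis points all lie above the normal lung points.

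**Figure D2:**
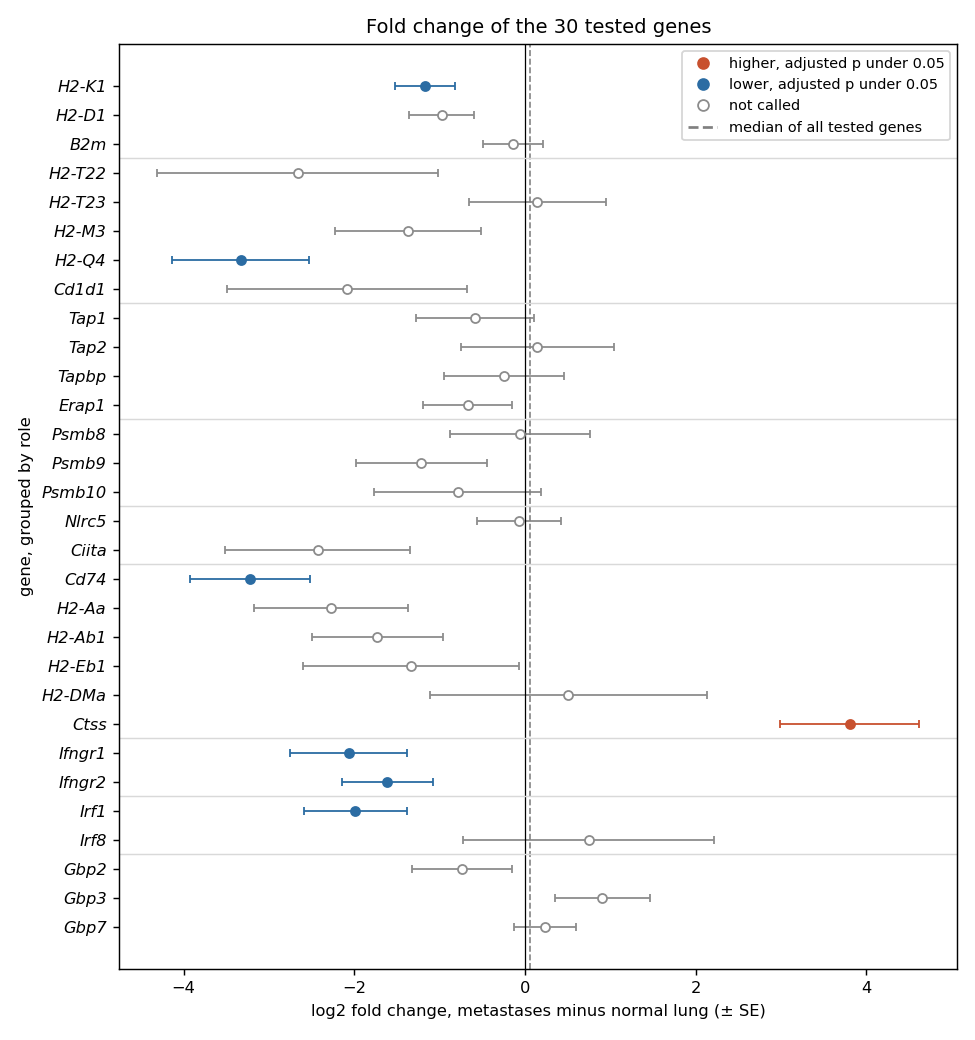
Log2 fold change (metastases minus normal lung, ± SE) of the 30 tested genes, with filled points for an adjusted p under 0.05 and a dashed line at the median of all tested genes, 0.06. Filled points below 0 are H2-K1, H2-Q4, Cd74, Ifngr1, Ifngr2 and Irf1, and the filled point above 0 is Ctss.

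Of the class I surface chains, the heavy chain H2-K1 was lower in metastases and the light chain B2m was at a similar mean level in both groups. H2-K1 was 802, 830, 801, 790 and 508 CPM in normal lung replicates 1 to 5 and 376, 478, 344, 198 and 255 CPM in the metastasis replicates. The groups did not overlap, and normal lung replicate 5 was the nearest to the metastases. The mean fell from 746 ± 134 to 330 ± 109 CPM (SD, n = 5 each), a log2 fold change of -1.18 ± 0.35 (SE; edgeR adjusted p = 0.0192). Without metastasis replicate 4 the edgeR adjusted p was 0.0627.

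H2-D1, the other classical heavy chain of this strain, was 836, 678, 338, 327 and 442 CPM in normal lung and 229, 380, 206, 222 and 296 CPM in metastases. One metastasis library, replicate 2, lay within the normal lung range, and the log2 fold change of -0.98 ± 0.38 did not pass (edgeR adjusted p = 0.0710). On the deposited FPKM values, limma gave -0.95 ± 0.22 with an adjusted p of 0.0169, which passes. B2m was 6658, 5849, 11849, 10117 and 11154 CPM in normal lung and 8604, 4615, 14690, 6601 and 6883 CPM in metastases. Its ranges overlapped almost wholly, and the log2 fold change was -0.14 ± 0.36 (edgeR adjusted p = 0.829).

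Compared per transcript length, in FPKM, B2m stood at 10184 ± 2385 in normal lung and 9058 ± 5401 in metastases. H2-K1 followed at 875 ± 171 and 363 ± 116, and H2-D1 at 580 ± 143 and 295 ± 35.0. The order B2m, H2-K1, H2-D1 held for the means of both groups, but the ranges of H2-K1 and H2-D1 overlapped in each, 701 against 747 FPKM being the lowest H2-K1 and the highest H2-D1 value in normal lung.

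The class I-like genes mostly lay lower in metastases but varied widely, and only H2-Q4, of the Qa family, passed. H2-Q4 was 211, 74.8, 33.1, 20.4 and 28.2 CPM in normal lung and 3.65, 9.98, 3.67, 7.72 and 11.5 CPM in metastases. Even the lowest normal library lay above every metastasis library, and normal lung replicate 1 was far above the rest. The log2 fold change was -3.33 ± 0.80 (edgeR adjusted p = 0.00436), and without normal lung replicate 1 it was -2.46 with an edgeR adjusted p of 0.0548. Its gene, at chr17:35379617-35385290 on GRCm38, shares 14.1% of its 100-base exon windows with other genes. Most of these, 11.8%, are shared with the overlapping gene Gm11131, and some with H2-Q6, so the count of H2-Q4 is uncertain.

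H2-Q6 and H2-Q7 had 0 counts in all 10 libraries. In the FPKM table of the same samples, made by a different program, H2-Q7, which encodes the Qa-2 antigen, was not at 0. It was listed at 62.6, 187, 72.8, 111 and 112 FPKM in normal lung and 36.0, 18.3, 12.8, 25.5 and 10.4 FPKM in metastases. The FPKM groups did not overlap, and limma on log2(FPKM + 1) gave -2.37 ± 0.41 (adjusted p = 0.00382). H2-Q6 was listed at 0.00702 to 26.9 FPKM in normal lung; metastasis replicate 1 had 217 FPKM and the other 4 had 0.742 to 9.53. Of the 100-base exon windows of H2-Q7 12.0% also occur in other genes, and 13% of those of H2-Q6, while 9.37% to 13.6% of reads per library were set aside as not unique. H2-K1 and H2-D1 share far fewer windows, 0.957% and 3.59%. Why H2-Q6 and H2-Q7 had 0 counts was not tested.

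H2-M3, which presents formylated bacterial peptides, was 24.5 to 66.5 CPM in normal lung and 1.45 to 40.7 CPM in metastases, with metastasis replicates 3, 4 and 5 under 7 CPM and replicates 1 and 2 within the normal range. Its log2 fold change of -1.37 ± 0.85 did not pass (edgeR adjusted p = 0.287). H2-T23, which encodes Qa-1, a ligand of NK cell receptors, was 20.4 to 55.3 CPM in normal lung; in metastases replicate 3 had 150 CPM and the other libraries 6.88 to 20.0. Cd1d1, which presents lipids to NKT cells, was 0.873 to 24.2 and 0.0612 to 6.94 CPM, and H2-T22 was at most 4.61 CPM in any library. None of these passed in the edgeR test (adjusted p = 0.927 for H2-T23, 0.333 for Cd1d1 and 0.284 for H2-T22).

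No gene of peptide loading passed. Tap1, one chain of the peptide transporter, was 21.1 to 211 CPM in normal lung and 7.39 to 101 CPM in metastases, with a log2 fold change of -0.59 ± 0.69. Tap2, its partner chain, was 3.02 to 69.9 and 5.72 to 46.6 CPM, with 0.14 ± 0.90. Tapbp (tapasin), which bridges the transporter and the empty heavy chain, gave -0.25 ± 0.70, and Erap1, the aminopeptidase that trims peptides, gave -0.67 ± 0.52. Adjusted edgeR p-values of the 4 genes ran from 0.415 (Erap1) to 0.934 (Tap2). Normal lung replicate 2 had the highest Tap1, Tap2 and Tapbp of its group. Tap2 and Tapbp overlap exons of other annotated genes over 18.5% and 29.0% of their exonic length, and whether the counts used strand is not given in the sources used here.

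The immunoproteasome subunits Psmb8, Psmb9 and Psmb10 replace Psmb5, Psmb6 and Psmb7 when interferon gamma acts on a cell. On their own, none of the 3 passed. Psmb9 was 156, 64.3, 110, 25.2 and 44.8 CPM in normal lung and 41.2, 74.2, 3.23, 49.4 and 4.34 CPM in metastases, with a log2 fold change of -1.21 ± 0.77 (edgeR adjusted p = 0.294). Metastasis replicates 3 and 5 lay below the normal lung range and the others within it. Psmb8 was 4.26 to 52.4 and 3.28 to 49.2 CPM, and Psmb10 was 4.92 to 66.0 and 1.74 to 29.7 CPM. Of the standard subunits, Psmb7 rose from 13.9 ± 11.6 to 61.4 ± 20.0 CPM, a log2 fold change of 2.15 ± 0.73 (edgeR adjusted p = 0.0394); leaving out any one of 7 of the 10 libraries raised its p above 0.05, to at most 0.0971. Psmb5 and Psmb6 gave 0.64 ± 1.12 and 0.92 ± 1.02 and did not pass.

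Within a library, each inducible subunit can be set against the standard one it replaces, a ratio that no scaling of libraries can move. The log2 ratio of Psmb9 to Psmb6 was 1.84, 4.30, 3.40, 2.36 and 3.64 in normal lung and 0.90, -0.01, 1.36, 1.62 and -1.23 in metastases. The groups did not overlap, and the mean difference was -2.58 (exact permutation test over all splits, two-sided p = 0.00794, 0.0476 after adjustment over 6 ratios). The log2 ratio of Psmb10 to Psmb7 was 1.00, 1.21, 1.18, 0.22 and -1.29 in normal lung and -2.34, -1.54, -0.89, -5.04 and -4.05 in metastases. Here normal lung replicate 5 lay below metastasis replicate 3, and the difference was -3.24 (exact permutation p = 0.0159, adjusted 0.0476). Psmb8 to Psmb5 differed by -0.59 with a wide overlap (exact permutation p = 0.548, adjusted 0.657).

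Both passing ratios were close to the threshold. On FPKM values Psmb9 to Psmb6 differed by -1.23 (exact permutation, adjusted p = 0.467) and Psmb10 to Psmb7 by -3.16 (adjusted p = 0.0952). Leaving out 1 library kept the first under 0.05 for 6 of 10 libraries and lost it when normal replicate 2 or metastasis replicate 2, 4 or 5 was removed. It kept the second for 4 of 10 and lost it when normal replicate 1, 2 or 4 or metastasis replicate 2, 4 or 5 was removed. Leaving out 1 library does not raise the lowest p that the exact test can give. Without normal lung replicate 1, the raw exact permutation p of Psmb9 to Psmb6 was still 0.00794.

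**Figure D3:**
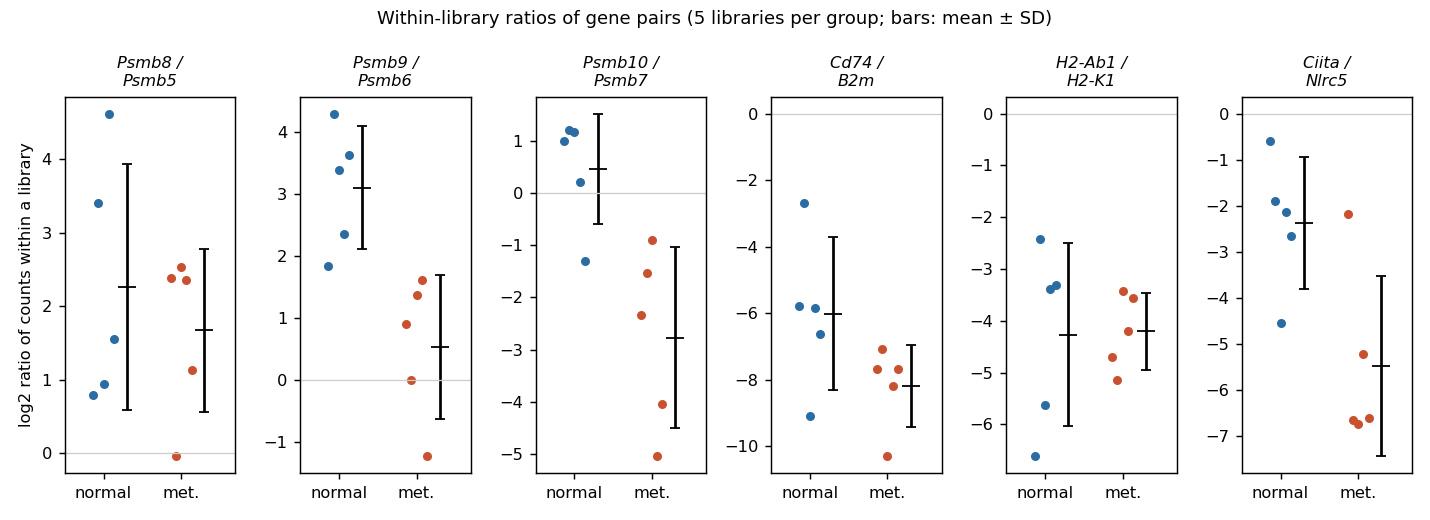
Log2 ratio of the counts of 2 genes within each library, for 6 pairs, with points for the 5 libraries per group and the mean ± SD beside them. Psmb9 to Psmb6 shows no overlap between the groups, whereas H2-Ab1 to H2-K1 has nearly the same mean in both, -4.27 and -4.21.

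The transactivators of the 2 classes differed in their estimates. Nlrc5, which drives class I genes, was 58.2 to 161 CPM in normal lung and 59.2 to 164 CPM in metastases, with a log2 fold change of -0.07 ± 0.49 (edgeR adjusted p = 0.944). Ciita, the master regulator of class II genes, was 38.5, 43.3, 5.41, 22.7 and 15.2 CPM in normal lung and 16.1, 0.582, 1.49, 4.38 and 0.599 CPM in metastases. Of the metastasis libraries 4 lay below the normal lung range and replicate 1 lay within it. Its log2 fold change of -2.43 ± 1.08 did not pass (edgeR adjusted p = 0.120); without metastasis replicate 1 it was -3.85, with an edgeR adjusted p of 0.0176, and DESeq2 gave -2.29 with an adjusted p of 0.0443 over all libraries. Within libraries, the log2 ratio of Ciita to Nlrc5 was -2.37 ± 1.44 (SD, n = 5) in normal lung and -5.48 ± 1.95 in metastases, a difference of -3.11 (exact permutation p = 0.0238, adjusted 0.0476). Metastasis replicate 1, at -2.18, lay among the normal libraries, and the adjusted p rose above 0.05 without any one of 8 of the 10 libraries, all but normal lung replicate 3 and metastasis replicate 1.

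In the class II pathway the invariant chain Cd74 was lower and the protease Ctss higher in metastases, while the class II chains did not pass. Cd74 was 120, 909, 21.6, 175 and 112 CPM in normal lung and 41.5, 34, 11.7, 22.4 and 33.6 CPM in metastases. Normal lung replicate 3 lay within the metastasis range, and replicate 2 stood far above the others. The log2 fold change was -3.22 ± 0.70 (edgeR adjusted p = 0.00202); without normal lung replicate 2 it was -1.93 with an edgeR adjusted p of 0.0477, and on log2(FPKM + 1) limma gave -2.39 with an adjusted p of 0.0674. The log2 ratio of Cd74 to B2m differed by -2.18 and did not pass (exact permutation p = 0.103, adjusted 0.155). Without normal lung replicate 3 it was -2.95 with an adjusted exact permutation p of 0.0238.

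The chains of I-A are H2-Aa, whose promoter is shown above, and H2-Ab1. H2-Aa was 36.3, 87.2, 19.4, 33.1 and 9.05 CPM in normal lung and 7.85, 18.6, 1.39, 5.02 and 5.39 CPM in metastases, with 4 metastasis libraries below the normal range. Its log2 fold change of -2.27 ± 0.91 did not pass in edgeR (adjusted p = 0.0798). DESeq2 (adjusted p = 0.0103) and limma on log2(FPKM + 1) (adjusted p = 0.0307) called it lower, as did edgeR without metastasis replicate 2 (adjusted p = 0.0388). H2-Ab1 was 8.21, 155, 16.2, 76.0 and 51.5 CPM in normal lung and 14.4, 13.5, 32.1, 10.8 and 21.6 CPM in metastases. All of its metastasis values lay within the wide normal range, and the log2 fold change was -1.73 ± 0.77 (edgeR adjusted p = 0.119). Set against H2-K1 in the same library, H2-Ab1 differed by 0.06 on the log2 scale (exact permutation p = 0.937), and leaving out 1 library moved that from -0.52 to 0.52.

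H2-Eb1 is annotated as the beta chain of I-E, whose alpha chain is not made in C57BL/6 mice. It was 61.5 and 36.6 CPM in normal lung replicates 1 and 2 and 0.471, 1.28 and 2.11 CPM in replicates 3 to 5. In metastases it was 25.4 and 12.4 CPM in replicates 4 and 5 and 0.794 to 1.03 CPM in the others (log2 fold change -1.33 ± 1.27, edgeR adjusted p = 0.520). H2-DMa, a chain of the DM molecule that loads class II, was above 1 CPM only in normal lung replicate 2 (20.3 CPM) and metastasis replicate 4 (30.1 CPM). H2-DMb1 reached 4.76 CPM in normal lung replicate 2 and 1.10 CPM in metastasis replicate 4, and H2-DMb2 had a count in only 1 of the 10 libraries.

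Ctss, the cathepsin that cleaves the invariant chain, was 23.8, 1.43, 2.02, 2.50 and 13.7 CPM in normal lung and 37.5, 211, 69.9, 125 and 165 CPM in metastases. Every metastasis library lay above every normal one. The mean rose from 8.70 ± 9.88 to 122 ± 70.1 CPM, a log2 fold change of 3.80 ± 0.82 (edgeR adjusted p = 0.00171), and the call held without each library in turn. Markers of macrophages and monocytes, cells known for high Ctss, moved the same way: Lyz2 was 47.3 ± 46.4 and 723 ± 358 CPM and Itgam 7.92 ± 5.37 and 315 ± 267 CPM. Dendritic and B cells also carry class II. Summed dendritic markers were 234 to 679 CPM in normal lung and 36.9 to 287 CPM in metastases, and of 8 markers 3 had a higher mean in metastases. Most of the sum in normal lung was 1 gene, Clec9a, at 411 ± 171 CPM there and 128 ± 130 CPM in metastases. Both tested markers, Zbtb46 and Clec9a, were lower, and each lost its call in edgeR without any one of 7 of the 10 libraries. Of the untested ones, Itgax was 0.252 ± 0.379 and 7.32 ± 12.2 CPM, Xcr1 also had the higher mean in metastases, Flt3 was at 0 counts in normal lung and Batf3 at 0 counts in all libraries. Summed B cell markers were 0.0941 to 11.1 and 1.09 to 18.9 CPM, with Pax5 higher. Alveolar type 2 markers, also of a cell type that carries class II, summed to 52.0 to 174 and 34.8 to 329 CPM, with 2 of 6 tested higher and 1, Abca3, lower. The part of these cells in the values of Cd74, the class II chains and Ctss was not tested.

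Set side by side, the 7 genes of the classical class I pathway had a median log2 fold change of -0.59 and the 6 tested class II genes one of -1.53, or -2.01 over all 8 with no filter. The class II median rests on few genes that differ widely: with a term for libraries 1 and 2 against 3 to 5 it was -0.33, beside -0.47 for class I, so that the order of the classes turned, and with libraries 1 and 2 alone it was -3.76. Class I genes summed to 7831 to 13187 CPM in normal lung and 5741 to 15324 CPM in metastases, most of it B2m. Class II genes summed to 59.9 to 1215 CPM in normal lung and 102 to 279 CPM in metastases. Cd74, H2-Aa, H2-Ab1 and H2-Eb1 alone, without Ctss and the DM genes, summed to 57.8 to 1188 and 45.9 to 73.0 CPM. This smaller sum spanned a far wider range among normal lung libraries than among metastases. Normal lung replicate 2 was at its top and replicate 3 at its bottom, inside the metastasis range. No test was made of the difference between the classes, and scaling to the pan-endothelial genes turned both medians above 0, to 2.13 and 1.82, beside 2.79 for all genes.

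**Figure D4:**
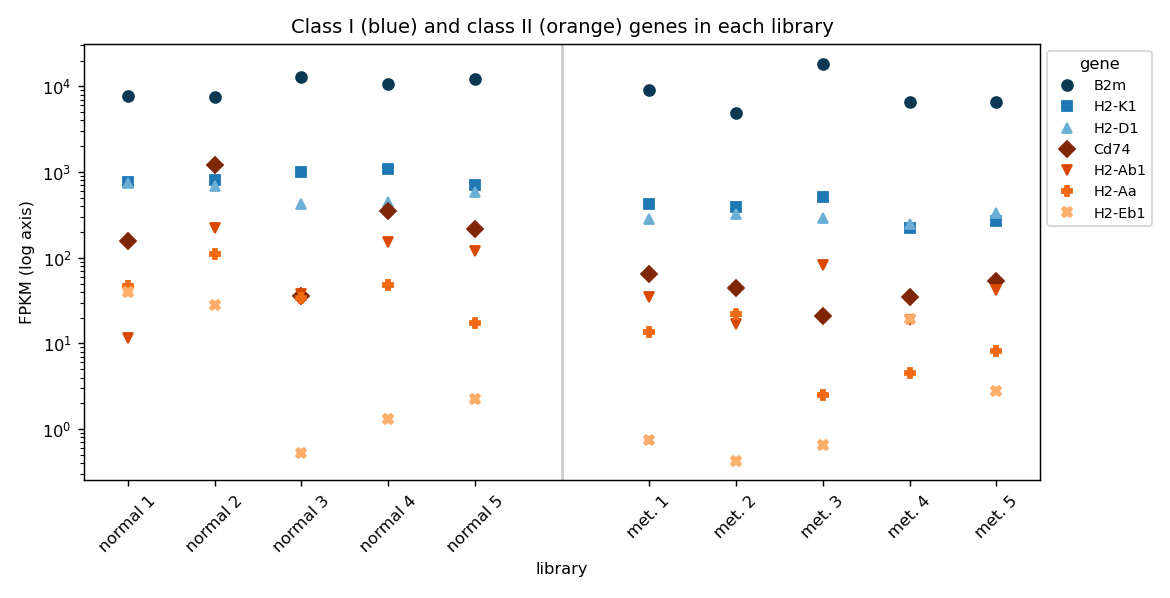
FPKM on a log axis of 3 class I genes (blue) and 4 class II genes (orange) in each of the 10 libraries. B2m lies above the other genes in every library and H2-K1 and H2-D1 change order in metastasis replicates 4 and 5, while Cd74 runs from 35.6 FPKM in normal lung replicate 3 to 1204 in replicate 2 and stays between 21.1 and 65.3 in metastases.

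Both chains of the interferon gamma receptor were lower in metastases. Ifngr1, the ligand-binding chain, was 132, 59.0, 64.3, 63.5 and 124 CPM in normal lung and 62.7, 14.3, 6.95, 12.5 and 9.45 CPM in metastases. Metastasis replicate 1 lay within the normal range and the other 4 below it, and the log2 fold change was -2.06 ± 0.69 (edgeR adjusted p = 0.0347). Ifngr2, the signalling partner chain, was 150, 162, 112, 51.9 and 87.1 CPM in normal lung and 24.2, 45.2, 33.2, 41.2 and 40.1 CPM in metastases. Those groups did not overlap, and the log2 fold change was -1.61 ± 0.53 (edgeR adjusted p = 0.0337). Both calls were near the threshold. Removing any one of normal replicates 1 and 5 and metastasis replicates 2 to 5 took the edgeR adjusted p of Ifngr1 above 0.05, to at most 0.0846. For Ifngr2, removing any one of normal replicates 1 to 3 and metastasis replicates 4 and 5 did the same, to at most 0.0890. Without metastasis replicates 4 and 5 together, the 2 libraries of lowest endothelial level, the values were -1.68 and -1.75 with edgeR adjusted p of 0.169 and 0.0883.

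The ligand Ifng itself had 0 counts in all 10 libraries. None of the 10 tested genes of interferon gamma signalling passed, among them Jak1 at -0.33 ± 0.38 and Jak2 at 1.21 ± 0.50 (edgeR adjusted p = 0.0945).

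Irf1, the response factor induced by interferon gamma, whose GAS element is shown above, was 251, 208, 130, 97.4 and 85.2 CPM in normal lung and 18.0, 44.7, 94.9, 29.3 and 8.00 CPM in metastases. Metastasis replicate 3 lay within the normal range and the other 4 well below it. The log2 fold change was -1.99 ± 0.61 (edgeR adjusted p = 0.0215), and without normal lung replicates 1 or 2 the edgeR adjusted p was 0.0644 or 0.0503. Irf8, a related factor known for its role in myeloid cells, was under 12 CPM in every library, between 0.0941 and 7.79 CPM in normal lung and 0.149 and 11.9 CPM in metastases, and did not pass (0.75 ± 1.47, edgeR adjusted p = 0.776).

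The guanylate binding proteins Gbp2, Gbp3 and Gbp7, GTPases that act on intracellular pathogens, did not pass. Gbp7 was the steadiest, 277 ± 82.5 CPM in normal lung and 325 ± 43.7 CPM in metastases (log2 fold change 0.23 ± 0.36). Gbp2 was 77.3 ± 26.5 and 46.3 ± 27.1 CPM (-0.74 ± 0.59), and Gbp3 was 49.0 ± 17.2 and 91.8 ± 49.9 CPM (0.91 ± 0.56). Their edgeR adjusted p-values were 0.71, 0.426 and 0.284. Of 12 other tested interferon gamma inducible GTPases, 5 were lower and none higher: Gbp9 (-2.03 ± 0.47, edgeR adjusted p = 0.00307), Irgm2 (-1.82 ± 0.48), Gbp4 (-1.96 ± 0.52), Iigp1 (-1.98 ± 0.56) and Tgtp2 (-2.25 ± 0.72). Tgtp2 lost its call without any one of 5 of the 10 libraries (edgeR adjusted p at most 0.0851) and Iigp1 without normal lung replicate 2 (0.0672). Gbp9 was 329 to 570 CPM in normal lung and 34 to 220 CPM in metastases, with no overlap. Gbp5 lay the other way, at 13.3 ± 8.19 and 56.0 ± 31.3 CPM, and did not pass (edgeR adjusted p = 0.0515). Irgm2, Gbp4 and Iigp1 were named after their values were seen.

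Other targets and partners of the pathway moved in both directions. Among 8 tested interferon gamma targets Cxcl10 (4.22 ± 0.82, edgeR adjusted p = 0.000726) and Cxcl9 (3.34 ± 1.01, adjusted p = 0.0201), chemokines for T cells, were higher, and the adhesion molecule Icam1 was lower (-1.63 ± 0.47, adjusted p = 0.0164, or 0.0844 without normal lung replicate 2). Cxcl10 was 1.87 to 36.6 CPM in normal lung and 43.2 to 294 CPM in metastases, with no overlap.

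Chaperones of class I assembly in the endoplasmic reticulum were partly higher: of 5 tested, Canx (calnexin, 1.26 ± 0.34, edgeR adjusted p = 0.0112) and Pdia3 (1.32 ± 0.41, adjusted p = 0.0234) rose and no call was lower, with estimates from -2.58 to 1.32. Pdia3 lost its call without any one of 4 of the 10 libraries and on log2(FPKM + 1), where limma gave an adjusted p of 0.231. Of 4 other tested class I genes, Mr1, which presents microbial vitamin metabolites, fell by 3.46 ± 1.01 on the log2 scale and H2-Q5 by 3.29 ± 1.12 (edgeR adjusted p = 0.0162 and 0.0382). Without normal lung replicate 1 the edgeR adjusted p of Mr1 was 0.0552. H2-Q5 shares sequence with H2-K1 and H2-Q7, and it lost its call without any one of 7 of the 10 libraries. Among 7 class II regulators Nfya, a subunit of the factor that binds the Y box, was lower (-2.34 ± 0.65, edgeR adjusted p = 0.0121).

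Of 8 tested genes of class II processing and turnover 4 were higher and none lower. Ifi30, the thiol reductase of endosomes, rose from 2.95 ± 2.02 to 131 ± 129 CPM (5.47 ± 0.80, edgeR adjusted p = 3.29e-05), and March1, the ligase that removes class II from the surface, from 0.705 ± 0.823 to 33.0 ± 50.0 CPM (5.54 ± 1.31, edgeR adjusted p = 0.00368). On log2(FPKM + 1), limma did not call March1 (adjusted p = 0.146). The cathepsins Ctsb (2.00 ± 0.45) and Ctsl (1.51 ± 0.35) were higher as well and were named after their values were seen. Between the groups, these genes differed in the same direction as the macrophage markers given above, and the part of those cells was not tested. Both tested costimulation genes, Cd80 and Icosl, failed to pass. In all, 9 of 61 tested genes in these lists were higher and 9 lower, beside 12.0% higher and 8.22% lower of all tested genes.

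**Figure D5:**
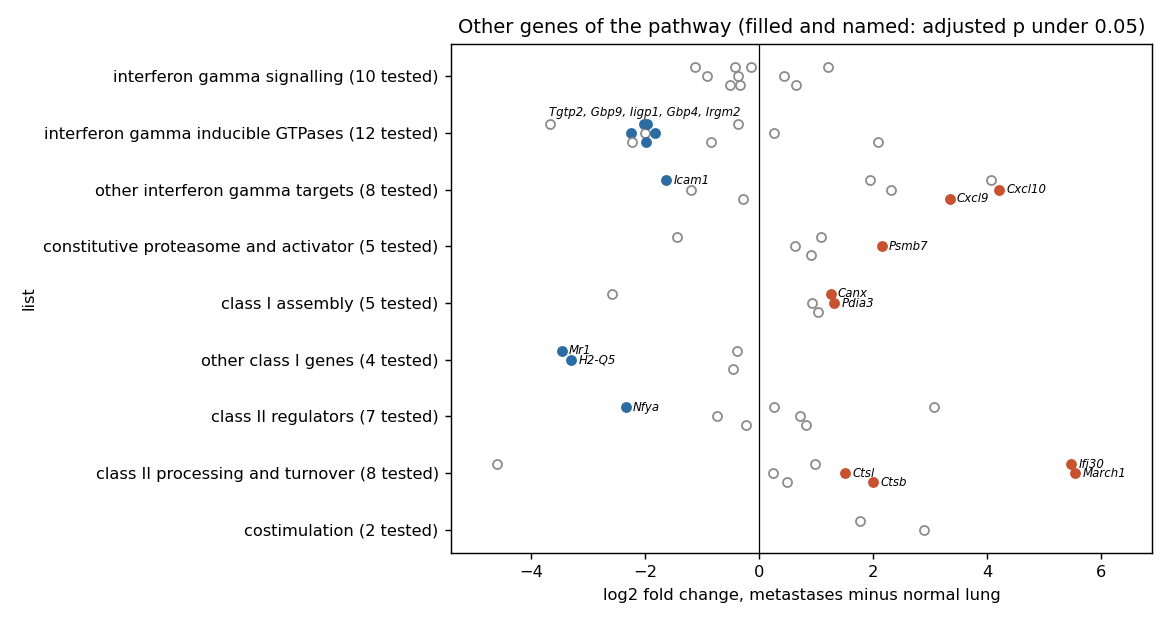
Log2 fold change (metastases minus normal lung) of 61 tested genes in 9 lists of the pathway, filled and named where the adjusted p was under 0.05. The filled points of the GTPase list all lie near -2, those of class II processing lie between 1.51 and 5.54, and the signalling list has none.

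Normal lung libraries split by their share of ribosomal RNA. In that group, Rn45s, a ribosomal RNA gene, held 2.83% to 3.51% of counts in replicates 1 and 2. In replicates 3 to 5 it held 0.408% to 0.469%. Replicates 1 and 2 also had more counts, 75.5 M and 79.7 M, beside 41.0 M to 48.8 M in replicates 3 to 5. The labels name no batch. Several members followed the same split in normal lung. Tap2 averaged 47.5 CPM in replicates 1 and 2 and 6.20 in replicates 3 to 5. The same means were 49.9 and 6.81 for Psmb10, 49.0 and 1.29 for H2-Eb1, and 143 and 27.2 for H2-Q4. Other members lay the opposite way: B2m averaged 6253 and 11040 CPM, Gbp7 195 and 331, and Cd1d1 1.15 and 13.6. In metastases the Rn45s share was 1.45% and 4.61% in replicates 1 and 2 and 0.647% to 1.24% in the others, with no clear gap, and these genes did not all follow it: H2-Eb1 averaged 0.919 CPM in replicates 1 and 2 and 12.9 in replicates 3 to 5, and H2-Q4 6.82 and 7.62. With libraries 1 and 2 of each group alone, the log2 fold changes of H2-K1, H2-Q4, Cd74, Ifngr1, Ifngr2, Irf1 and Ctss were -0.92, -4.37, -3.76, -1.29, -2.15, -2.85 and 3.32. With libraries 3 to 5 alone they were -1.41, -1.85, -2.20, -3.14, -1.15, -1.26 and 4.29. All 7 kept their direction in both sets, and a fit with a term for the set kept all 7 calls in edgeR. In the smaller sets alone, 3 of the 7 passed among libraries 1 and 2 (H2-Q4, Cd74 and Irf1) and 3 among libraries 3 to 5 (H2-K1, Ifngr1 and Ctss).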

How the data were processed

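RNA of CD31+/CD45- lung cells was sequenced as paired 100 bp reads after amplification with the Ovation V2 kit, per the labels' protocols. The deposited counts are raw reads per gene; per the submitters' processing notes TopHat2 2.0.13, HTSeq 0.6.1, Cufflinks 2.2.1 and DESeq2 1.6.3 were used on mm10/GRCm38. The authors also deposited FPKM, scaled for length and depth. The annotation is not given in the sources used here, nor is the strand setting. HTSeq's summary categories were left out of totals. The largest, reads on no annotated gene, held 55.4% to 64.7% of reads in normal lung and 57.9% to 73.7% in metastases. The non-unique one held 9.37% to 13.6% of reads.

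Counts of 5 normal lung and 5 metastasis libraries were compared with edgeR 4.0.16 in R 4.3.3 (filterByExpr, TMM scaling, robust quasi-likelihood fit, without covariates), two-sided; p-values were adjusted over 11823 genes by Benjamini-Hochberg, threshold 0.05. CPM are on TMM-scaled libraries; SE is the size of the log2 fold change divided by the root of F. The common biological coefficient of variation was 1.01. The fit was tested on simulated data. Ratios use counts plus 0.5. Alternatives were DESeq2 1.42.0, other scalings, filters and thresholds, limma 3.58.1 on log2(FPKM + 1) or + 0.1, the replicate number as a block, and library subsets.

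The members and lists, and the rule for naming genes, were chosen with earlier results of these data known. Named were all members, the sort genes, the ratio genes, Ifng, Jak1 and Jak2, up to 2 called genes per direction in each pathway list and the 2 most abundant of each marker list; some of these genes are not reported here. Loci are from GENCODE M21 (GRCm38), which may not be the authors' annotation. Shared sequence was counted as 100-base exon windows found in another gene.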

Additional observations from a re-analysis of the deposited data

Results flagged for a closer look

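For the members, 62 groups of 5 libraries were examined, and in 6 of them 1 library stood apart from the rest by Dixon's criterion on log2(CPM + 0.5), which chance meets in about 1 of 20 groups. H2-K1 in normal lung replicate 5 was lowest at 508 CPM, with the next library at 790. Psmb8 in normal lung replicate 3 was 4.26 CPM, against 26.3 in the next, and Gbp3 in normal lung replicate 5 was 21.8 CPM, against 47.6. H2-DMa was far highest in normal lung replicate 2, at 20.3 CPM against 0.861, and in metastasis replicate 4, at 30.1 CPM against 0.582. H2-DMb1, its partner chain, was also highest in metastasis replicate 4, at 1.10 CPM against 0.0705.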

How the results depend on the processing

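Scaling to the pan-endothelial genes turned the direction of the class I and class II medians (2.13 and 1.82) and of many genes: H2-K1 1.41, H2-D1 1.92, B2m 2.46, H2-Q4 0.017, Tap1 2.13, Tapbp 2.78, Erap1 1.85, Psmb8 2.72, Nlrc5 2.73, Ifngr1 0.20, Ifngr2 1.34, Irf1 0.68, Gbp2 2.23, Pecam1 0.36, Jak1 2.21, Tgtp2 0.14, Gbp9 0.38, Gbp4 0.33, Iigp1 0.73, Irgm2 0.67, Icam1 1.35, Nfya 0.89, Cdh5 0.20 and Clec9a 0.45 on the log2 scale, with 7069 genes higher and 20 lower, 16 members higher and 0 lower, and a median of all genes of 2.79. Scaling by library totals moved that median to 0.32; Ifngr2 (-1.33, edgeR adjusted p = 0.0952) and Zbtb46 (-3.01, 0.0654) then lost their calls and Jak2 gained one (1.29, 0.0463).

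At a threshold of 0.01, 869 genes were higher and 453 lower, and 2 members lower. Libraries 1 and 2 alone gave 487 higher, 201 lower, 0 members higher and a class II median of -3.76; libraries 3 to 5 alone gave 3 members lower. Without metastasis replicates 4 and 5, 527 genes and 2 members were lower, and the ratios Psmb9 to Psmb6, Psmb10 to Psmb7 and Ciita to Nlrc5 were -2.35, -2.06 and -2.82, not passing (exact permutation). On FPKM + 0.1 these 3 were -1.23, -3.16 and -2.30 and did not pass, and limma on FPKM of at least 1 in 5 libraries called 11 members lower. The cause was not tested. With metastasis replicates 4 and 5 both left out, the lowest possible exact p is higher.

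Whether replicate numbers pair the samples was not settled. Correlations of same-numbered deviations ran from -0.01 to 0.17. Normal lung replicates 2, 3 and 4 correlated best with the metastasis library of the same number, and replicates 1 and 5 with another one. With the replicate block edgeR called 1435 genes higher and 1180 lower, 1 member higher and 5 lower; Ifngr2 was lost at an adjusted p of 0.0588. The same 3 ratios, still -2.58, -3.24 and -3.11, reached an adjusted exact permutation p of 0.0938 under the block, where a raw p cannot go below 0.063.

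Leaving out 1 library gave 1302 to 1440 genes higher, 792 to 1114 lower, 1 member higher each time and 2 to 7 lower. The 3 ratios then ran from -2.89 to -2.14, from -3.71 to -2.67 and from -3.94 to -2.67, and Cd74 to B2m from -2.95 to -1.34. Of 1682 estimates of named genes under an alternative, 1470 kept their side of the threshold with no call reversed, 160 lost a call, 28 gained one and 24 reversed; 65 estimates with no call in either fit changed sign.

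With 5 libraries a group and a coefficient of variation near 1, changes of moderate size can be missed. Members with counts under 10 in 5 or more libraries (H2-T22, H2-DMa, H2-DMb1, H2-DMb2, Irf8, H2-Q6 and H2-Q7) are limited by depth or by read assignment. Counts of class I genes that share sequence remain uncertain.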
